A study of Mus musculus with 20 samples.

Results

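Peaks of Ser2P, RNA polymerase II (Pol II) phosphorylated on serine 2 of its C-terminal repeats, were compared with peaks of H3K36me3, histone H3 trimethylated on lysine 36. All 1811 Ser2P peaks and all 49181 H3K36me3 peaks were used, out of 270514 peaks in 16 deposited lists. A Ser2P peak was called inside H3K36me3 when it shared at least 1 bp with an H3K36me3 peak and outside otherwise, and H3K36me3 peaks were split by Ser2P in the same way. The lists came from chromatin immunoprecipitation and sequencing (ChIP-seq) of CD4+/CD8+ double-positive T cells, an intermediate stage of T-cell development, taken from the thymus of wild-type C57BL/6 mice. The mice were 5 to 6 weeks old per the protocol given for the FAIRE and RNA samples. The other lists covered total Pol II, Ser5P (Pol II phosphorylated on serine 5), the general transcription factors TBP, Taf1, TFIIA, TFIIB, TFIIE, TFIIF and TFIIH, the coactivator CBP, the T-cell factor ETS1, H3K4me1, H3K4me3 and FAIRE, which marks open chromatin. No treatment or mutant was among the 20 samples, and 4 samples without a peak list were not analysed here.

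Serine 5 of the Pol II repeats is phosphorylated by the kinase of TFIIH as transcription begins, and serine 2 is phosphorylated as the enzyme moves into and along the gene, with the highest levels usually towards the end of genes. H3K36me3 is deposited by SETD2, an enzyme that binds the phosphorylated repeats of elongating Pol II, so the mark covers the bodies of transcribed genes. H3K4me3 sits at the start of active genes and H3K4me1 at enhancers and around promoters.

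Each target had 1 list, so no spread between animals could be computed and no test was made. Intervals given below are 95% intervals (Wilson for shares, Newcombe for differences of shares, a normal approximation for width-weighted differences, order statistics for medians). They cover counting error only, and because neighbouring peaks are not independent they are too narrow. Positions are in build mm9. Genome sequence and gene annotation of that build were not used here, so regions are named by position without a gene.

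Of the 1811 Ser2P peaks, 972 (53.7%, interval 51.4 to 56.0) lay inside H3K36me3 and 839 lay outside. The same overlap was found for 4.6% of the 116902 peaks in the 12 other factor and FAIRE lists. H3K36me3 covered 104 Mb, or 4.06% of the 2573 Mb spanned by the lists. Most inside peaks were wholly within the mark, since 837 of the 972 (86.1%) had every base covered by H3K36me3. Over the 20 chromosomes with at least 20 Ser2P peaks, the share inside ran from 20.0% on chromosome X to 74.6% on chromosome 17, with a median of 51.9%. On all 20 of them it was above the share of the chromosome that H3K36me3 covered, which ran from 0.990% to 7.52%.

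In the other direction the overlap was rare. Of the 49181 H3K36me3 peaks, 624 (1.27%, 1.17 to 1.37) held Ser2P. By comparison, 1.76% of the 219522 peaks in the 14 other lists overlapped Ser2P. In bases, 0.500% of the H3K36me3 length lay under Ser2P. The Ser2P list was short in total as well, at 858 kb. The depth behind either list was unknown, so H3K36me3 peaks without Ser2P are peaks without a listed Ser2P peak, and whether Ser2P was absent from them cannot be told.

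Ser2P peaks of larger area lay inside more often. The area of a peak is the authors' area under the signal track across it, and it was used here only to rank peaks within a list. In the lowest decile of the Ser2P list by area, 50 of 182 peaks (27.5%, 21.5 to 34.4) were inside H3K36me3, and in the highest decile it was 140 of 181 (77.3%, 70.7 to 82.8). The share rose over the first 8 deciles, from 27.5% to 69.6%, then stood at 65.7% in the ninth. Width moved with area, and a wide peak has more room to touch another list. Peaks of 110 to 230 bp were inside in 24.7% of cases (106 of 429), and peaks of 580 bp or wider in 73.5% (266 of 362).

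**Figure D1:**
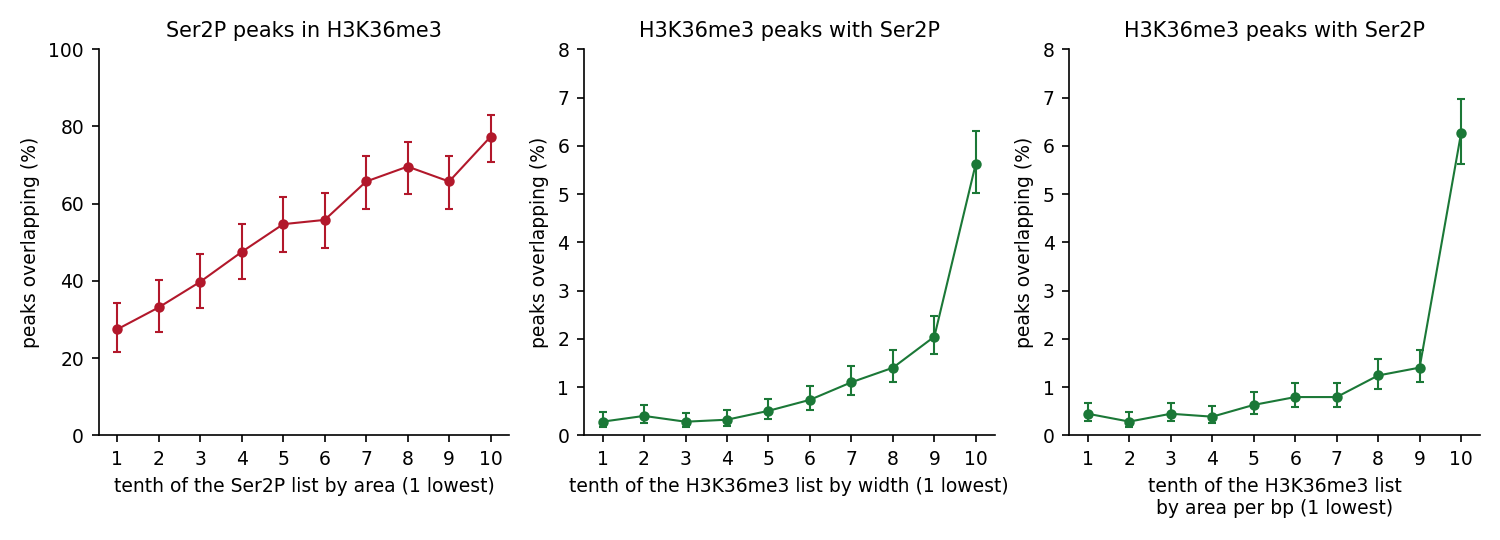
Left, the percentage of Ser2P peaks overlapping H3K36me3 in each decile of the Ser2P list ranked by area. Middle and right, the percentage of H3K36me3 peaks overlapping Ser2P in each decile of the H3K36me3 list ranked by width and by area per bp. Bars are 95% Wilson intervals. The Ser2P share goes from 27.5% to 77.3%, and the H3K36me3 shares stay at or below 2.05% up to the ninth decile and reach 5.63% and 6.26% in the highest.

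Many of the 839 outside peaks bordered the mark and many others were remote from it. They were divided at 5 kb and 50 kb, distances chosen after the values were seen. Of them, 424 (50.5%) were within 5 kb of an H3K36me3 peak, 135 (16.1%) were 5 to 50 kb away, and 280 (33.4%) were over 50 kb away. Of those within 5 kb, 184 were within 1 kb. A further count gave 23 outside peaks lying in a gap of up to 2 kb between consecutive H3K36me3 peaks.

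Ser2P peaks inside H3K36me3 had a median width of 380 bp (360 to 400), with quartiles of 280 and 610 bp and a widest peak of 6690 bp. Those outside had a median of 260 bp (250 to 270), quartiles of 220 and 390 bp and a widest peak of 5380 bp. The distributions overlapped widely. Within the outside set the median was 350 bp (330 to 390) within 5 kb of H3K36me3, 230 bp (220 to 240) at 5 to 50 kb and 220 bp (220 to 230) beyond 50 kb. Peaks of 1 kb or more made up 10.7% of the inside set (104 of 972), 2.26% of the outside set (19 of 839) and 0.714% of the far set (2 of 280). The inside median was the larger on 19 of 20 chromosomes, the exception being chromosome 13 at 270 bp inside against 280 bp outside.

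Inside and outside peaks differed in median width but hardly in median area per bp, and peak height was not measured. Area per bp, the mean signal across a peak, had a median of 60.0 inside (59.3 to 60.6), 60.3 outside (59.7 to 61.1) and 62.0 beyond 50 kb (60.2 to 63.2). Total area per peak, which multiplies width by area per bp, had medians of 22680 inside and 15977 outside.

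**Figure D2:**
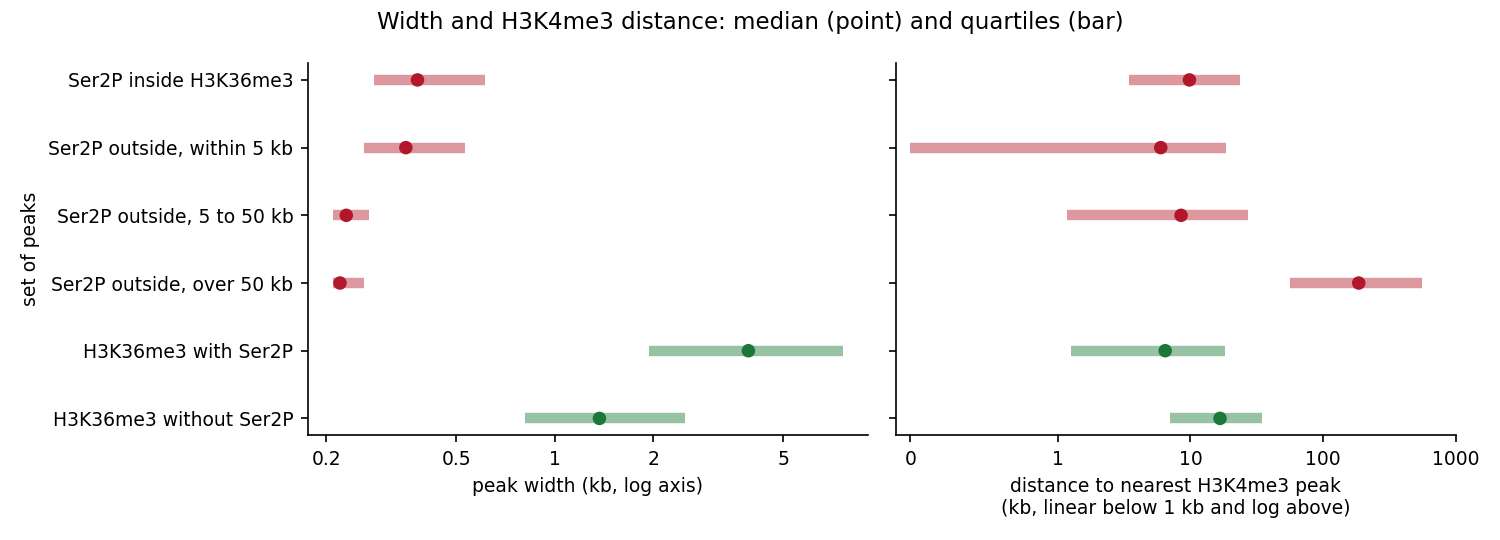
Width (left, kb on a log axis) and distance to the nearest H3K4me3 peak (right, kb, linear below 1 kb and log above) for 4 sets of Ser2P peaks in red and 2 sets of H3K36me3 peaks in green. Points are medians and bars run from the lower to the upper quartile. Median Ser2P width falls from 380 bp inside H3K36me3 to 220 bp over 50 kb away, and the far Ser2P peaks are the set with the greatest distance to H3K4me3, at a median of 185650 bp.

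The 3 Ser2P peaks of highest area inside H3K36me3 were on chromosomes 11 and 17. The peak at chromosome 11, 52063941 to 52070630, spanned 6690 bp, and that at chromosome 11, 52070701 to 52076520, spanned 5820 bp and began 70 bp after it. They held 20 and 11 Ser5P peaks, and each overlapped 1 total Pol II peak. The last, at chromosome 17, 51875141 to 51879600, was 4460 bp wide and 66890 bp from the nearest H3K4me3 peak. Its area per bp, 214, was the highest of any Ser2P peak.

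The highest areas outside were at the border of the mark or far from it. The peak at chromosome 11, 95687741 to 95693120, was 5380 bp wide, overlapped 3 H3K4me3 and 9 total Pol II peaks, and lay 250 bp from H3K36me3. The peak at chromosome 8, 108146081 to 108148180, was 230 bp from H3K36me3 and overlapped 13 of the 16 lists. The last, at chromosome 13, 23831111 to 23832230, was 316320 bp from H3K36me3, overlapped an H3K4me3 peak and was present in 11 of the 16 lists.

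That peak on chromosome 13 belonged to a local group. Between 21 and 24 Mb of chromosome 13, a window chosen after its values were seen, there were 13 Ser2P peaks, all over 50 kb from H3K36me3 and all overlapping H3K4me3. They were 250 to 1150 bp wide with a median of 510 bp, against the median of 220 bp for the whole far set. These 13 made up most of the 18 far peaks that overlapped H3K4me3, and the 3 far peaks of highest area were all among them. The window held 19 H3K36me3 peaks.

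H3K36me3 peaks that held Ser2P were wider and had a higher mean signal than those without. Their median width was 3915 bp (3570 to 4330), with quartiles of 1943 and 7605 bp, against 1370 bp (1360 to 1390) and quartiles of 810 and 2510 bp for the 48557 peaks without Ser2P. The median was larger with Ser2P on 20 of 20 chromosomes. Area per bp had a median of 125 (119 to 131) with Ser2P and 81.1 (80.8 to 81.4) without. Here, unlike for the Ser2P list, both width and mean signal differed between the sets.

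A wide peak has more room to hold another, so the share was also read per base. By width, Ser2P was found in 0.283% of the narrowest decile of H3K36me3 peaks (14 of 4939) and in 5.63% of the widest decile (277 of 4918), and the share of bases under Ser2P went from 0.207% to 0.849%. By area per bp, peaks with Ser2P went from 0.447% (22 of 4919) to 6.26% (308 of 4918), and bases from 0.143% to 1.31%. Within the widest decile, ranked again by area per bp in 4 groups, the share with Ser2P was 1.86%, 2.11%, 4.21% and 14.3%. The highest of those groups had 176 of 1235 peaks with Ser2P (12.4 to 16.3). The share with Ser2P thus also differed by mean signal among peaks of the widest decile.

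Among the widest H3K36me3 peaks, some held many Ser2P peaks and some held none. The widest with Ser2P, at chromosome 9, 112024721 to 112051260, held 9 Ser2P and 34 total Pol II peaks in 26540 bp. The next, at chromosome 2, 117104061 to 117128820, held 7 Ser2P and 19 total Pol II peaks, and the one after it, at chromosome 15, 102311771 to 102335210, held 1 Ser2P and no total Pol II peak. The 3 widest peaks without Ser2P were wider still. They lay at chromosome 1, 164614561 to 164655060 (40500 bp, 3 total Pol II peaks), at chromosome 1, 40042181 to 40082160 (39980 bp, no total Pol II peak), and at chromosome 6, 71538201 to 71572710 (34510 bp), where no other list had a peak.

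Consecutive H3K36me3 peaks separated by 2 kb or less were joined into 15381 domains, to approximate stretches that the list breaks into pieces. Ser2P lay in 452 of them (2.94%, 2.68 to 3.22). The share was 6.24% of the 6399 domains of 5 kb or more, 11.3% of the 1543 of 20 kb or more and 16.7% (11.5 to 23.6) of the 144 of 50 kb or more. A longer domain has more room to hold a peak, and the part of length in this order was not tested. Even among the longest domains, most had no listed Ser2P peak. Domains with Ser2P had a median length of 15620 bp and those without 3530 bp. Of the 452, 296 held a single Ser2P peak, 36 held 5 or more and 13 held 10 or more.

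Ser2P peaks inside H3K36me3 were packed together. Another Ser2P peak lay within 5 kb of 662 of the 972 inside peaks (68.1%, 65.1 to 71.0) and of 262 of the 839 outside (31.2%, 28.2 to 34.4). The near outside peaks stood between, at 55.9% (237 of 424), and the far ones were isolated, at 4.29% (12 of 280). Median distance to the nearest other Ser2P peak was 855 bp inside, 2150 bp in the near outside set and 877655 bp in the far set. A long stretch of signal that the list splits into pieces gives several peaks, so these counts are of listed peaks and not of transcribed units.

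Joining Ser2P peaks across gaps of 5 kb or less gave 1116 runs, of which 887 were single peaks. The 229 runs of 2 or more held 924 peaks (51.0%). H3K36me3 was met by 310 of the 887 single peaks (34.9%, 31.9 to 38.1), by 78 of the 100 runs of 2 (78.0%), by 67 of the 78 runs of 3 or 4 (85.9%) and by 49 of the 51 runs of 5 or more (96.1%, 86.8 to 98.9). Longer runs cover more ground, and the part of run length in this order was not tested. With each run counted once, an alternative chosen after seeing the data, the share in H3K36me3 was 45.2% in place of 53.7%. The 10 largest runs alone held 203 peaks (11.2%), 179 of them inside, and without them 49.3% of the remaining 1608 peaks were inside.

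The largest run, at chromosome 17, 51874271 to 51963710, held 62 Ser2P peaks in 89440 bp. Ser2P covered 79.2% of it, and 60 of the 62 peaks were inside H3K36me3. It also held 50 total Pol II, 27 Ser5P, 44 H3K4me1 and 7 H3K4me3 peaks. The second, at chromosome 1, 139803241 to 139849870, held 34 Ser2P peaks, all inside, with 82 total Pol II and 8 Ser5P peaks, and Ser2P covered 65.1%. The next, at chromosome 9, 112000081 to 112028420, held 16, all inside, with 44 total Pol II and 2 Ser5P peaks and no H3K4me3 peak. Ser2P covered 22.6% of this run, so it was a row of separate narrow peaks, unlike the first.

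**Figure D3:**
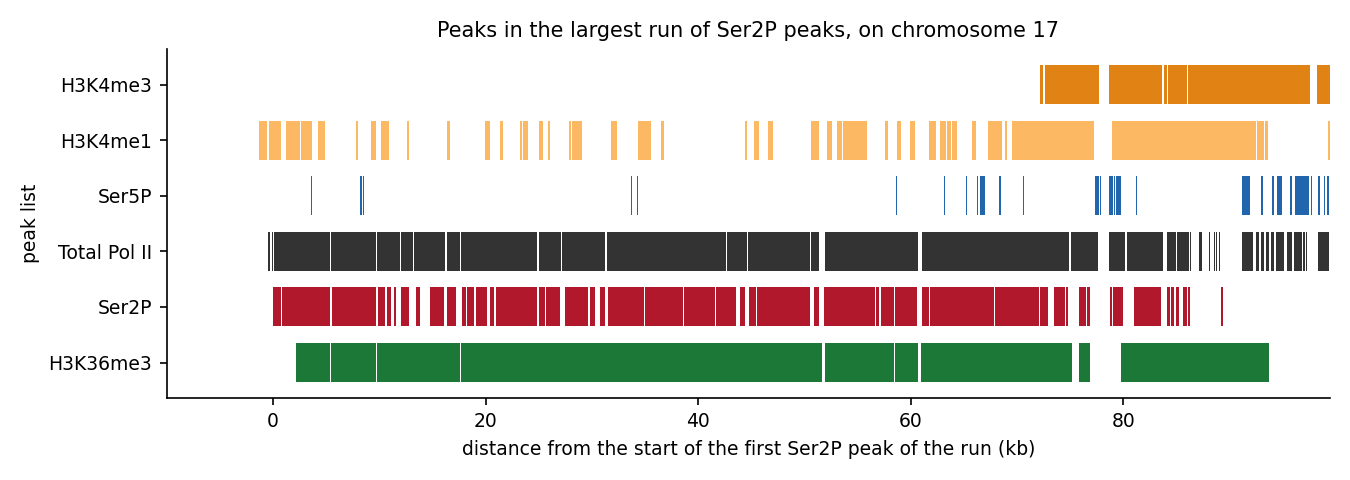
Peaks of 6 lists in the largest run of Ser2P peaks and 10 kb on each side. The horizontal axis is distance in kb from the start of the first Ser2P peak, and each block is 1 peak, with neighbouring blocks touching where the gap is too small to draw. Ser2P covers 79.2% of the run, H3K36me3 runs alongside it in a few long peaks, and H3K4me3 lies only towards the right end.

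The 5 domains with the most Ser2P peaks differed in the number of Pol II peaks they held. Listed peaks differ in length, so these counts do not give amounts of Pol II. The domain at chromosome 17, 51876421 to 51951140, had 50 Ser2P, 31 total Pol II and 16 Ser5P peaks, and none of TBP. The domain at chromosome 9, 111959841 to 112117920, had 48 Ser2P but 183 total Pol II peaks, with 8 of Ser5P, and the domain at chromosome 1, 139798511 to 139868410, had 41, 124 and 15. Next were chromosome 19, 41106101 to 41135110, with 15 Ser2P, 34 total Pol II and 8 Ser5P peaks, and chromosome 11, 52049351 to 52095790, with 14, 10 and 43. The last was the domain among the 5 with more Ser5P than Ser2P peaks, and it also had 23 TBP peaks.

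Inside peaks were less often next to H3K4me3 than outside peaks, and less often very far from it. An H3K4me3 peak was within 1 kb of 144 of the 972 inside peaks (14.8%, 12.7 to 17.2) and of 212 of the 839 outside (25.3%, 22.4 to 28.3). Within 5 kb the shares were 32.1% (29.2 to 35.1) and 34.4% (31.3 to 37.7), whose intervals overlap. Peaks over 100 kb from H3K4me3 were 3.09% of the inside set (30) and 24.4% of the outside set (205). Median distances were 9830 bp inside and 14370 bp outside.

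The outside set was again a mixture. Its near members were the closest to H3K4me3 of all, with 37.5% within 1 kb (159 of 424), whereas 7.14% of the far members were (20 of 280) and 66.4% of these were over 100 kb away (186 of 280). For H3K36me3 peaks, the median distance to H3K4me3 was 6455 bp with Ser2P and 16720 bp without, and 23.4% and 4.04% came within 1 kb. The peaks with Ser2P were also wider, and the part of width in this difference was not tested.

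Position along the mark was read in domains of 5 kb or more that had an H3K4me3 peak within 5 kb of exactly 1 end. Of the 6399 domains of that length, 2334 qualified, 650 had H3K4me3 near both ends and 3415 near neither. The end with H3K4me3 was set to 0%, the other to 100%, and 10 kb was read beyond each. These windows held 720 Ser2P peaks from 272 domains. Of these, 114 (15.8%) lay before the H3K4me3 end, 486 (67.5%) in the domain and 120 (16.7%) past the far end.

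Ser2P was shifted towards the far end. Its median position was 65.2% (58.7 to 69.6), and 295 of the 486 peaks in domains (60.7%, 56.3 to 64.9) were beyond the midpoint. Density was 9.20 peaks per Mb in the first of 10 equal parts of the domains and 21.5 in the last, where it was highest. It was 15.2 in the first 2 kb past the far end and 4.50 in the next 2 kb. Of the 120 peaks past the end, 71 were in those first 2 kb.

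A few domains carried many of these peaks, at positions nearer the middle. With their flanks, the domains on chromosomes 17, 1 and 9 named above had 61, 49 and 48 of the 720, with median positions of 42.5%, 51.4% and 51.0%. With each domain counted once the median was 78.6% (69.6 to 82.8), and without the 10 largest runs it was 70.8% (64.4 to 77.3), both computed after seeing the data. Both medians again took in the flanks. Without those runs 63.0% of 365 peaks in domains were beyond the midpoint.

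Other Pol II lists had a different profile in the same windows. Of 4532 total Pol II peaks, 62.1% lay before the H3K4me3 end, the side chosen for an H3K4me3 peak close to it, and 27.1% in the domain. Ser5P had 86.1% of 2414 peaks before that end and 6.50% in the domain, and TBP, which binds core promoters, had 87.1% of 2836 and 3.28%. Within domains, peaks beyond the midpoint were 58.2% of total Pol II (55.4 to 60.9), 43.9% of Ser5P (36.4 to 51.8) and 26.9% of TBP (18.9 to 36.7). By the choice of domains, no H3K4me3 peak lay within 5 kb of the far end, inside the domain or past it. For lists that often lie at H3K4me3, these shares are therefore not independent of that choice. Ser2P and total Pol II had overlapping intervals for this share within domains, whereas 15.8% of Ser2P and 62.1% of total Pol II peaks lay before the H3K4me3 end.

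**Figure D4:**
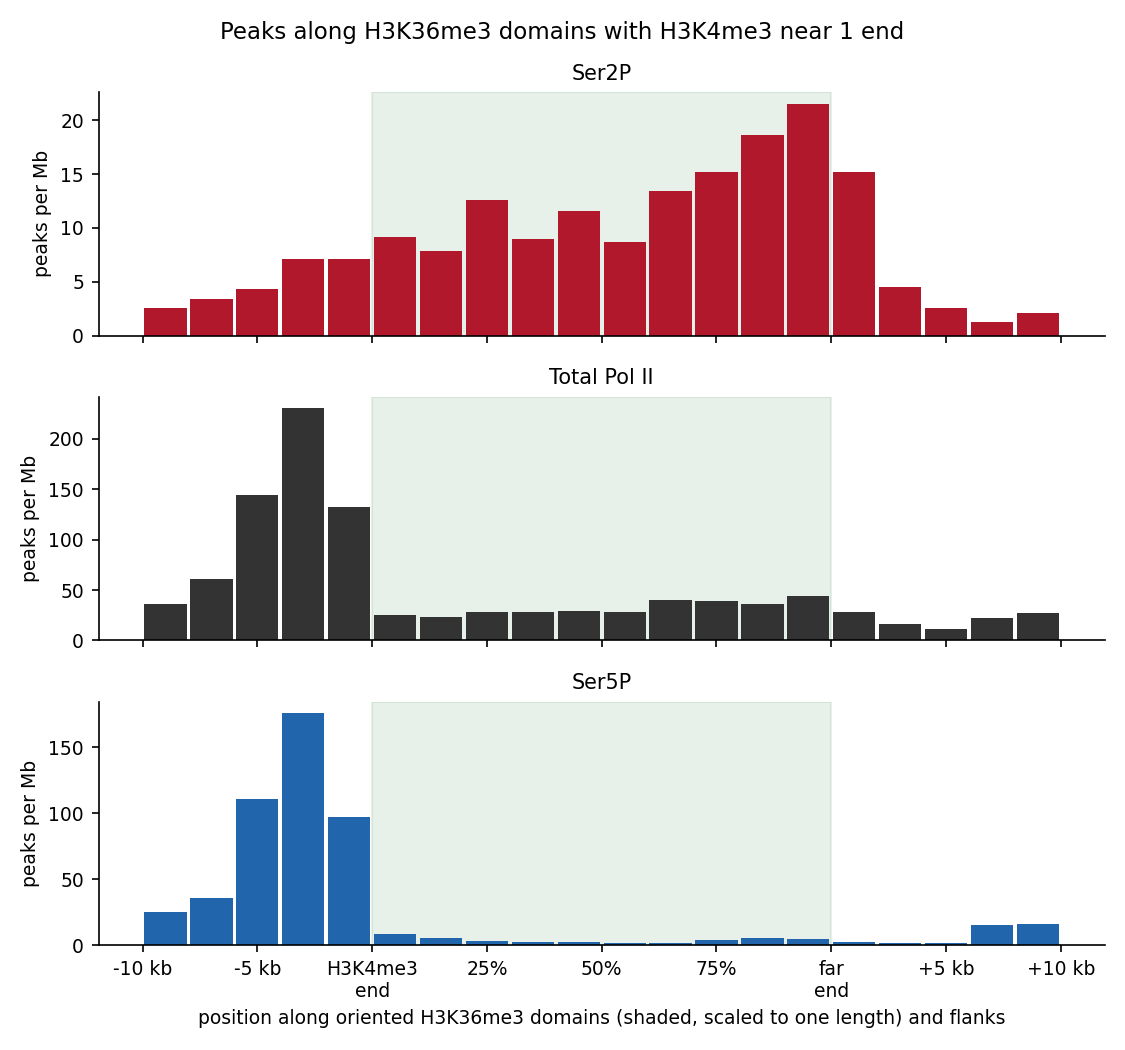
Peaks per Mb of Ser2P, total Pol II and Ser5P along the 2334 oriented H3K36me3 domains (shaded, scaled to one length, in 10 parts) and in 2 kb steps of the 10 kb flanks. Vertical axes differ between panels. Ser2P is highest in the last part of the domains at 21.5 peaks per Mb, while total Pol II and Ser5P are highest in the flank next to the H3K4me3 end.

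Ser2P peaks outside H3K36me3 sat on both sides of these domains. Of the 196 in the windows, 103 (52.6%, 45.6 to 59.4) were past the far end and 83 (42.3%, 35.6 to 49.3) before the H3K4me3 end. These intervals overlap.

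Total Pol II was the list found most often at Ser2P peaks inside H3K36me3, at 564 of 972 (58.0%, 54.9 to 61.1). H3K4me1 followed at 31.9%, Ser5P at 11.3% and H3K4me3 at 11.0%. General factors were nearly missing, with TBP at 31 peaks (3.19%), TFIIE at 28 (2.88%), TFIIB at 24 (2.47%), TFIIH at 18 (1.85%), Taf1 and TFIIA at 11 each (1.13%) and TFIIF at 6 (0.617%). None of these 7 was present at 914 of the 972 (94.0%). No other list at all was present at 349 (35.9%, 32.95 to 38.97). That share was 33.85% for the outside set (30.7 to 37.1), with overlapping intervals. It was 29.2% for the outside peaks within 5 kb (25.1 to 33.7) and 41.1% for the far set. It thus did not set the inside peaks apart from the outside set as a whole.

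Outside H3K36me3 the general factors were found more often, although 544 of the 839 peaks (64.8%) held none of the 7. TBP was at 25.6% of the 839 peaks, TFIIE, which recruits TFIIH, at 24.0%, TFIIH, which holds the serine 5 kinase, at 21.8%, Taf1, a subunit of TFIID, at 20.3% and TFIIA, which stabilises TBP on DNA, at 14.8%. TFIIB was at 7.75% and TFIIF at 6.91%. The difference inside minus outside was -22.4 percentage points for TBP (-25.6 to -19.3) and -19.1 for Taf1 (-22.0 to -16.4). In the upper 50% of the Ser2P list by area these gaps were smaller, at -6.84 points for Taf1, -6.18 for TFIIA (from -13.6), -10.2 for TFIIH (from -20.0) and -16.4 for TBP. The gaps for H3K4me3, at -18.6 points (from -8.06), and for TFIIB, at -8.36 (from -5.28), were wider there. So were those for FAIRE, at -7.02 (from -4.19), and Ser5P, at -6.5 (from -4.65). Of the 14 lists, 12 were more frequent outside by intervals that excluded 0, and 1, total Pol II, was more frequent inside, by 13.4 points (8.84 to 18.0). H3K4me1 was at 32.3% outside and its difference of -0.41 points had an interval from -4.72 to 3.89.

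Other settings changed 2 of these statements. With the sets weighted to the same widths, the total Pol II difference fell to 2.35 points with an interval of -2.05 to 6.74 that included 0, so the excess inside did not hold at equal widths. It was 6.25 points (1.37 to 11.1) without the 10 largest runs. H3K4me1 became less frequent inside, by -9.64 points (-14.1 to -5.19), once widths were weighted. The same direction was found without the 10 largest runs, at -7.3 points (-11.7 to -2.95). In the upper 50% of the Ser2P list by area the difference was -11.2 points (-18.0 to -4.35). H3K4me1 became more frequent inside, by 4.58 points (0.101 to 8.93), when peaks within 1 kb of H3K36me3 were counted as inside. Its direction thus depended on the setting. The 12 lists more frequent outside were so under each of these settings.

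**Figure D5:**
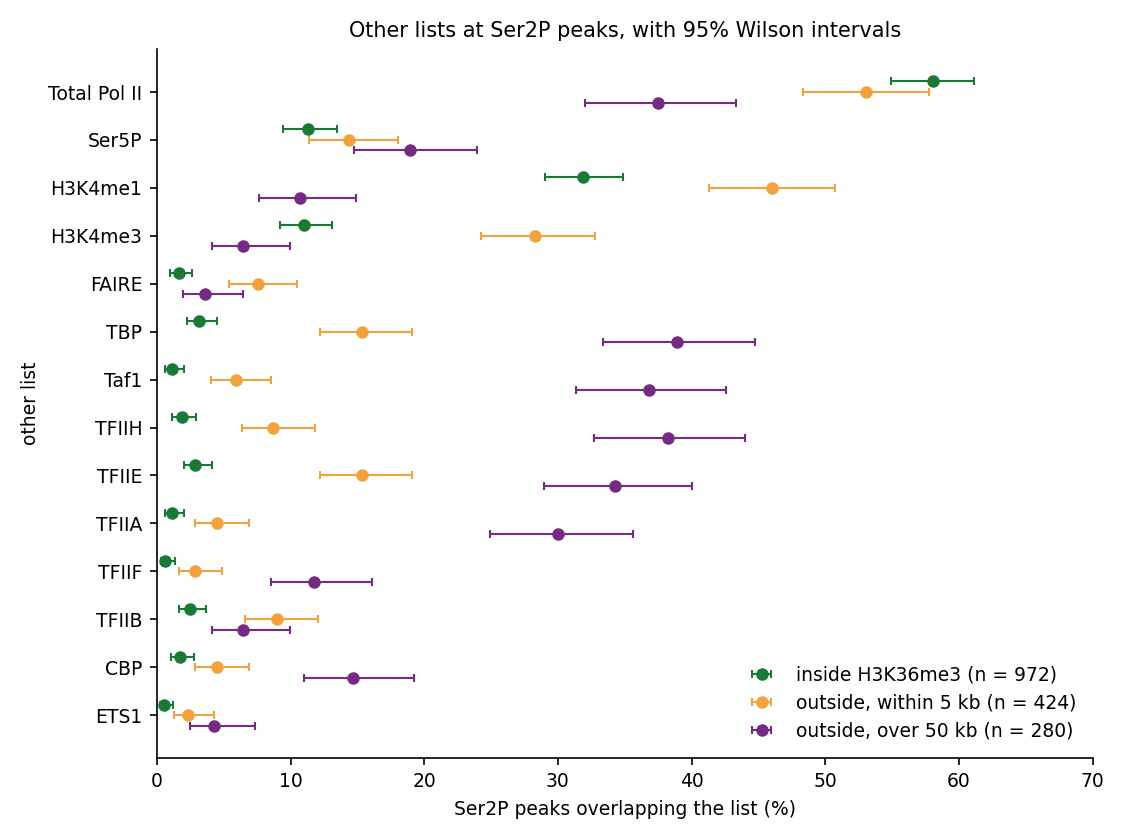
Percentage of Ser2P peaks overlapping each of the 14 other lists, for peaks inside H3K36me3 (green, n = 972), outside but within 5 kb (orange, n = 424) and over 50 kb away (purple, n = 280). The 135 outside peaks at 5 to 50 kb are not drawn. Bars are 95% Wilson intervals. TBP, Taf1, TFIIH, TFIIE and TFIIA go from 1.13% to 3.19% inside to 30.0% to 38.9% in the far set, while total Pol II goes from 58.0% to 37.5%.

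The near and far outside groups differed in which lists they held. Near H3K36me3, H3K4me1 was at 46.0% of Ser2P peaks (195 of 424), H3K4me3 at 28.3% and FAIRE at 7.55%. None of H3K4me1, H3K4me3 and FAIRE was present at 207 of the 424 (48.8%), against 653 of the 972 inside peaks (67.2%). TBP and TFIIE were both at 15.3% of the near peaks. Total Pol II was at 53.1%, and its difference from the inside set, 4.96 points, had an interval of -0.69 to 10.6. Far from H3K36me3, promoter and enhancer marks were scarce, with H3K4me1 at 10.7% (30 of 280), H3K4me3 at 6.43% and FAIRE at 3.57%. There TBP was at 38.9%, TFIIH at 38.2%, Taf1 at 36.8%, TFIIE at 34.3%, TFIIA at 30.0%, CBP at 14.6% and TFIIF at 11.8%. TFIIB, which bridges TBP and Pol II, did not follow the other factors, at 6.43% in the far set and 8.96% in the near one. The high shares were not particular to the far set. Among the 135 peaks at 5 to 50 kb, Taf1 was at 31.1%, TBP at 30.4%, TFIIE at 29.6%, TFIIH at 28.9% and CBP at 14.1%. There H3K4me1 was at 34.1% and H3K4me3 at 16.3%, both above the far set.

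In the far set several of these factors often shared a peak. A count of 3 or more of the 7 general factors, a limit set after the values were seen, was met by 112 of 280 far peaks (40.0%, 34.4 to 45.8), by 31.9% at 5 to 50 kb, by 11.8% within 5 kb and by 22 of 972 inside (2.26%, 1.50 to 3.40). Most of the 112 were alike in size, with a median width of 210 bp and quartiles of 210 and 223 bp. The full range was 170 to 1150 bp, and 5 of the 112 were in the chromosome 13 window above. Another Ser2P peak lay within 5 kb of 2 of the 112. Total Pol II overlapped 87 of them (77.7%) but 18 of the other 168 far peaks (10.7%). CBP overlapped 30 (26.8%) and 11 (6.55%). Of the 112, 98 (87.5%) overlapped none of H3K4me1, H3K4me3 and FAIRE, the same share as in the whole far set (245 of 280, 87.5%).

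Mean signal differed within the far set. Area per bp had a median of 67.6 for the 112 and 57.5 for the other 168, against 60.1 for the whole Ser2P list. Total area was lower in the far set, at a median of 14135 against 18949 for the list. The input and immunoglobulin samples were not analysed here, so the signal of those controls at these sites was not tested. Gene annotation and mappability were not used either, so what lies at these sites, and whether they gather signal in any library, was not tested. Without the 227 Ser2P peaks of any set that held 3 or more general factors, 60.0% of the rest were inside H3K36me3.

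From the side of the mark, every one of the 14 lists was more frequent at H3K36me3 peaks with Ser2P than at those without. Total Pol II was at 58.5% of the 624 and 1.04% of the 48557, or 1.87% once these were weighted to the widths of the former. Ser5P was at 17.5% and 0.301% (0.569% weighted), H3K4me1 at 43.3% and 6.83% (8.46% weighted), H3K4me3 at 15.5% and 1.005% (1.31% weighted) and TBP at 5.13% and 0.330% (0.461% weighted). After this weighting by width group, each of these 5 lists was still more frequent with Ser2P.

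Total Pol II and Ser2P peaks picked out overlapping H3K36me3 peaks. Of the 869 H3K36me3 peaks with total Pol II, 365 (42.0%, 38.8 to 45.3) also had Ser2P, against 259 of the 48312 without it (0.536%, 0.475 to 0.605). Of the 255 with Ser5P, 109 (42.7%, 36.8 to 48.9) had Ser2P. Most H3K36me3 peaks, 48312 of 49181, had no listed total Pol II peak.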

How the data were processed

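Ser2P and H3K36me3 ChIP-seq peak lists of mouse double-positive thymocytes were compared with 14 other lists of the series. The values were peak coordinates and an area, which is the signal summed under the authors' track over each peak, per the names of the deposited files. Track names inside the deposited files say that artefacts had been removed and the signal scaled and background-subtracted, except for FAIRE. Replicates had been merged for 13 lists before deposit, and CBP, Taf1 and TFIIB came from 1 replicate each, per the same names. The build was mm9, per the submitters' processing notes. Aligner, peak caller, threshold and read depth were not given in the sources used here, so depth could not set the precision of any value. Peak ends fell on multiples of 10 bp. A low threshold would lengthen lists, widen peaks and raise overlaps.

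Overlap, distances, runs, joined domains and oriented positions were computed from the coordinates with pandas 2.3.3, numpy 2.4.6 and scipy 1.17.1 under Python 3.11.15, and plotted with matplotlib 3.10.9. The code was tested on simulated data, 600 peaks against 800 and 100 domains of known direction, with 0 mismatches. Widths were weighted by direct standardisation over width groups, and widths could still differ within a group. Each list was 1 sample, so no test between samples was possible.

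Regions were named by a rule: the 3 Ser2P peaks of highest area inside and outside H3K36me3, the 3 widest H3K36me3 peaks with and without Ser2P, the 5 domains and the 3 runs with the most Ser2P peaks. The members and lists were chosen with earlier results of these data known. Work on genes, cell type markers and sequences, which needs mm9 annotation, was not done. Alternatives covered the overlap rule, list length, neighbour and H3K4me3 distances, domain building, width weights and the sex chromosomes.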

Additional observations from a re-analysis of the deposited data

How the results depend on the processing

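With the upper 50% of the Ser2P list by area, 66.9% of Ser2P peaks overlapped H3K36me3 and 0.779% of H3K36me3 peaks overlapped Ser2P, median Ser2P widths were 520 bp inside and 470 bp outside, shares with a neighbour within 5 kb were 71.95% and 51.0%, and 40.3% of outside peaks were within 1 kb of H3K4me3. With the upper 50% of the H3K36me3 list the shares were 48.9% and 2.19%, and H3K36me3 widths were 4745 bp with and 2530 bp without Ser2P. Counting peaks within 1 kb as overlapping gave 63.8% and 1.88%, widths of 240 bp for outside Ser2P and 2900 bp for H3K36me3 with Ser2P, 22.9% of outside peaks with a neighbour and 17.6% of inside peaks near H3K4me3. By peak centre 0.309% of H3K36me3 peaks held Ser2P, and by covered length the 2 shares were 60.8% and 0.500%. Neighbours within 1 kb were found for 52.8% inside and 22.8% outside, and within 20 kb for 75.6% and 35.8%. H3K4me3 within 5 kb was found for 32.1% inside and 34.45% outside, and the upper 50% of H3K4me3 gave 18.0% outside within 1 kb. Among alternatives chosen after seeing the data, counting each run once gave 45.2% inside. Leaving out the 10 largest runs gave 49.3% and 1.14%, 60.9% of inside peaks with a neighbour and a median position of 70.8%. Leaving out peaks with 3 or more general factors gave 60.0% inside, a width of 285 bp outside and 36.9% of outside peaks with a neighbour. Counting each oriented domain once moved the median position to 78.6%. The other 48 of 84 recomputed values of these results stayed within the interval of the reported value or, for the count of lists more frequent outside, within 1.5 times it, including every value for autosomes only. For these shares and widths the order of inside and outside, or with and without Ser2P, was kept in each setting that gave both. Of 70 recomputed differences in the presence of single lists, 26 moved beyond the interval of the reported value. H3K4me1 went from -0.41 points to 4.58 with peaks within 1 kb counted as overlapping, and to -11.2 with the upper 50% of the Ser2P list. No paired analysis was possible because each target had 1 list. The unknown depth and threshold limit what an absent peak means, and merged lists hide the spread between animals.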
